A study of Mus musculus with 24 samples.

Results

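The chemokines that attract neutrophils and their receptors were followed as a family of 7 genes, chosen by symbol among the 55401 gene identifiers of the count table: the ligands Cxcl1, Cxcl2, Cxcl3 and Cxcl5, their receptor Cxcr2, and the granulocyte growth factor Csf3 with its receptor Csf3r. RNA was sequenced from 24 tumors of TC2Ras cells, grown in male C57/BL6 mice of 8 to 10 weeks. TC2Ras is a prostate adenocarcinoma line made from mouse TRAMP-C2 cells by adding activated H-Ras and mouse androgen receptor. 4 tumors grew under the skin (SC) and were taken after 1 week, 2 from mice given the IL-27 vector and 2 from mice given the empty vector. The other 20 grew in the tibia from TC2Ras-Luc cells, a luciferase derivative of the line, and fell into 4 treatments: empty vector (control), IL-27 vector (IL-27), empty vector with cabozantinib (cabo), and IL-27 vector with cabozantinib (IL-27+cabo). 12 of them were taken on day 14 (D14, 3 mice per treatment) and 8 at the end of the study (EOS, 2 mice per treatment), when an animal reached its ethical endpoint, so that EOS is not one fixed day. In both models the plasmid was delivered into skeletal muscle by sonoporation and not into the tumor, and in the intratibial model every mouse received cabozantinib, a tyrosine kinase inhibitor, or its vehicle by daily gavage for 2 weeks. The IL-27 encoded by the plasmid carries a peptide that binds the IL-6 receptor. RNA came from whole tumor tissue, and the gene counts of a library summed to between 63729005 and 83782258. No label ties the SC tumors to separate mice, so that p-values in that model measure the spread between these tumors, which may share an animal.

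CXCL1, CXCL2, CXCL3 and CXCL5 are small secreted proteins with a glutamate-leucine-arginine motif ahead of their paired cysteines, and all bind CXCR2, the receptor that draws neutrophils out of the marrow and into inflamed tissue. G-CSF, the product of Csf3, acts on myeloid precursors through the receptor encoded by Csf3r to make and release neutrophils. In tumors these ligands come from tumor cells, macrophages and stroma, and neutrophils themselves make CXCL2.

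The 4 ligand genes lie on chromosome 5 of GRCm38 (GENCODE M21), all on the plus strand: Cxcl5 (ENSMUSG00000029371) from 90759360 to 90761624, Cxcl3 (ENSMUSG00000029379) from 90786103 to 90789600, Cxcl1 (ENSMUSG00000029380) from 90891241 to 90893115 and Cxcl2 (ENSMUSG00000058427) from 90903871 to 90905938. Cxcr2 (ENSMUSG00000026180) lies on chromosome 1 from 74153989 to 74161246, Csf3 (ENSMUSG00000038067) on chromosome 11 from 98701263 to 98703629 and Csf3r (ENSMUSG00000028859) on chromosome 4 from 126024550 to 126044440. No annotated gene overlaps any of them. The longest transcripts of Cxcl2 and Cxcl3, of 2066 and 3498 bases, were 76.4% identical over the 2035 bases aligned without gaps. They shared an unbroken run of 157 bases, so that reads from one may be counted for the other and the values of this pair are uncertain. The other pairs of ligands shared runs of 14 to 23 bases.

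The promoters of Cxcl1, Cxcl2 and Cxcl3 are shown because all 3 ligands were highest in the same intratibial tumor, described further on. Each is the 100 bases that end just before the RefSeq start site (GRCm38.p6, plus strand, at chr5:90891145-90891244, chr5:90903799-90903898 and chr5:90786001-90786100). Capitals mark a run that matches the NF-κB motif (GGGA, a gap of 2 bases of any kind, then TTCC) on both strands, 1 base apart, and the TATA-like motif ATAAAAG.
Cxcl1: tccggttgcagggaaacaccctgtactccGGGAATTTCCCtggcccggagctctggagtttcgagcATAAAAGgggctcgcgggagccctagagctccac
Cxcl2: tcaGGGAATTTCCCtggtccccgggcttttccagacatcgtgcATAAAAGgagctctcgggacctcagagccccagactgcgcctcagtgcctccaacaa
Cxcl3: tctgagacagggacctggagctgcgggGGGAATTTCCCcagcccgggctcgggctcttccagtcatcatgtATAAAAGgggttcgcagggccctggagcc
The 3 promoters carried the same 11 letters, which began 71, 97 and 73 bases before the start site in Cxcl1, Cxcl2 and Cxcl3. The TATA-like motif began at 34, 57 and 29 bases. Over both strands, 1.47% of the 32851 RefSeq windows from 250 bases before to 50 bases after a start held the NF-κB motif and 5.42% held the TATA-like motif. In this window Csf3r held the NF-κB motif on the minus strand, 129 bases before its start, and Cxcr2 held neither. The AP-1 motif TGANTCA, present in 7.81% of windows, was in none of the 5 promoters examined. Cxcl5 and Csf3 were not examined. A match is a run of letters and not a measured binding site.

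Levels are given in CPM, counts per 1000000 counts scaled by edgeR's effective library size, with SC and intratibial tumors scaled apart, so that levels are not compared between the models. To compare genes, CPM was divided by the length in kb of all annotated exons merged. For Cxcl1, Cxcl2 and Cxcl3 the merged exons cover the whole gene, introns included, which lowers their values on this scale. Over the 20 intratibial tumors, the median level was 1.05 CPM per kb for Cxcl1, 0.848 for Csf3r, 0.617 for Cxcl2, 0.515 for Cxcl3, 0.505 for Cxcl5 and 0.205 for Cxcr2. Csf3 had no counts in 12 of these 20 tumors, and its highest value was 0.580 CPM per kb. In the 4 SC tumors Csf3r had the highest median, 2.55 CPM per kb, followed by Cxcl1 at 1.97 and Cxcl5 at 1.70. All 7 are thus genes of low level. Between 30.4% and 35.5% of the values from 1 to 20 in each library were multiples of 4, so that counting error may be larger than such counts imply.

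**Figure D1:**
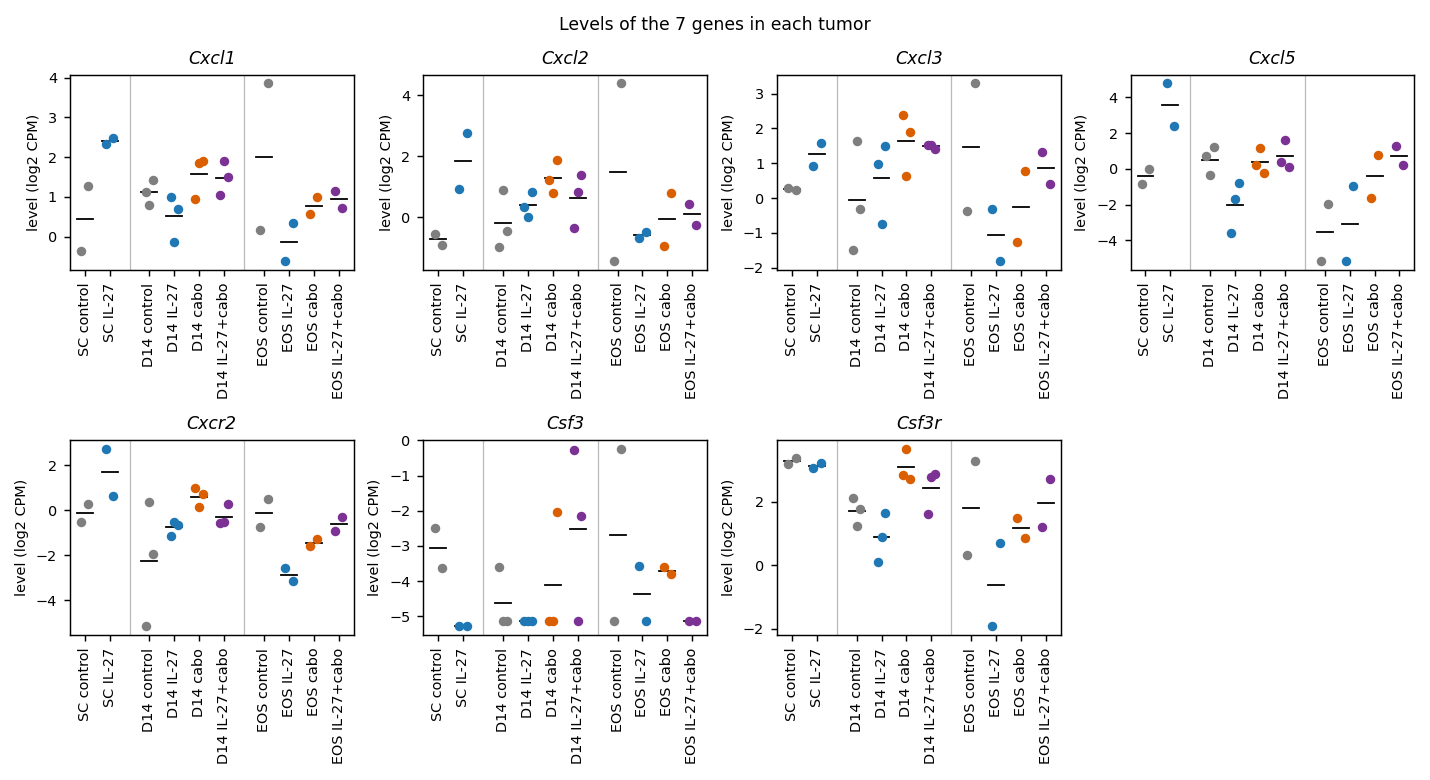
Level of each gene in every tumor, in log2 CPM on the y axis (prior count of 2), by group on the x axis. Each point is a tumor and each bar a group mean; a tumor with 0 counts sits at the lowest level of its panel, at about -5. The EOS control tumor of mouse 9 lies above the other 19 intratibial tumors for Cxcl1, Cxcl2, Cxcl3 and Csf3, and both SC IL-27 tumors lie above both SC control tumors for the 4 ligands and Cxcr2.

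The SC tumors addressed whether IL-27 made in muscle changes a distant tumor. The ligands Cxcl2 and Cxcl5 rose in the IL-27 tumors, while Csf3r, the G-CSF receptor, had nearly the same level in all 4 tumors. Cxcl5 had 27.6 and 5.34 CPM in the IL-27 tumors (replicates 1 and 2) against 0.528 and 0.986 in the control tumors. All IL-27 values lay above the control values, though the IL-27 tumors themselves were far apart, at 16.5 ± 15.7 CPM (SD, n = 2) against 0.757 ± 0.324 (SD, n = 2). The log2 fold change of Cxcl5 was 4.46 (SE 0.88, edgeR adjusted p = 0.0134, n = 2 and 2). Cxcl2 had 1.87 and 6.75 CPM with IL-27 against 0.654 and 0.507 in the control tumors. Here the second IL-27 tumor was the higher one, and the log2 fold change was 2.90 (SE 0.75, edgeR adjusted p = 0.0372, n = 2 and 2).

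2 of the 6 members that passed edgeR's filter on low counts were thus called, both higher, where 20% of the 19360 genes tested were called and 3.52% were called as higher; 4 had an unadjusted p under 0.05, against 35.4% of genes, and DESeq2 called 4, where it called 31.6% of genes. The median log2 fold change of these 6 members was 1.95, against 0.04 over all genes tested. Cxcl1 had 5.01 and 5.52 CPM with IL-27 and 0.754 and 2.38 CPM in the control tumors. Its groups did not overlap, and its log2 fold change of 1.76 (SE 0.65) did not pass the test (edgeR adjusted p = 0.104, n = 2 and 2). Cxcl3 had 1.87 and 2.96 CPM with IL-27 against 1.19 and 1.15, again without overlap, with a log2 fold change of 1.06 (SE 0.57, edgeR adjusted p = 0.228, n = 2 and 2). In all, the groups of 5 of the 6 did not overlap. With groups this small that is common: it held for 66.5% of all genes tested, and for 31.4% with IL-27 as the higher group.

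Cxcr2, the receptor of all 4 ligands, had 6.67 and 1.53 CPM with IL-27 and 0.666 and 1.20 CPM in the control tumors. The groups did not overlap, but the first IL-27 tumor carried most of the difference, and the log2 fold change of 2.15 (SE 0.81) did not pass (edgeR adjusted p = 0.107, n = 2 and 2). That tumor also had the highest Cxcl5, whereas the other IL-27 tumor had the higher Cxcl2. Csf3r had 8.29 and 9.29 CPM with IL-27 against 9.09 and 10.3, overlapping groups with a log2 fold change of -0.12 (SE 0.38, edgeR adjusted p = 0.849, n = 2 and 2). Csf3 had 12 and 4 counts in the control tumors and 0 in both IL-27 tumors, too few for a test.

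The calls in this model were sensitive to single tumors. Cxcl2 lost its call without control tumor 1, control tumor 2 or IL-27 tumor 2, with edgeR adjusted p of 0.155, 0.130 and 0.236. Cxcl5 lost its call without control tumor 1 (edgeR adjusted p = 0.121) or control tumor 2 (0.0544). Calls were also gained, by Cxcr2 without IL-27 tumor 2 (edgeR adjusted p = 0.0056) and by Cxcl1 without control tumor 2 (0.0357). Correcting the counts for GC content and transcript length, library by library, also ended the call of Cxcl2 (log2 fold change 2.24, edgeR adjusted p = 0.105), as did testing without the filter on low counts (edgeR adjusted p = 0.0733). The same correction turned Csf3r to a log2 fold change of 1.10, which did not pass (edgeR adjusted p = 0.113).

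**Figure D2:**
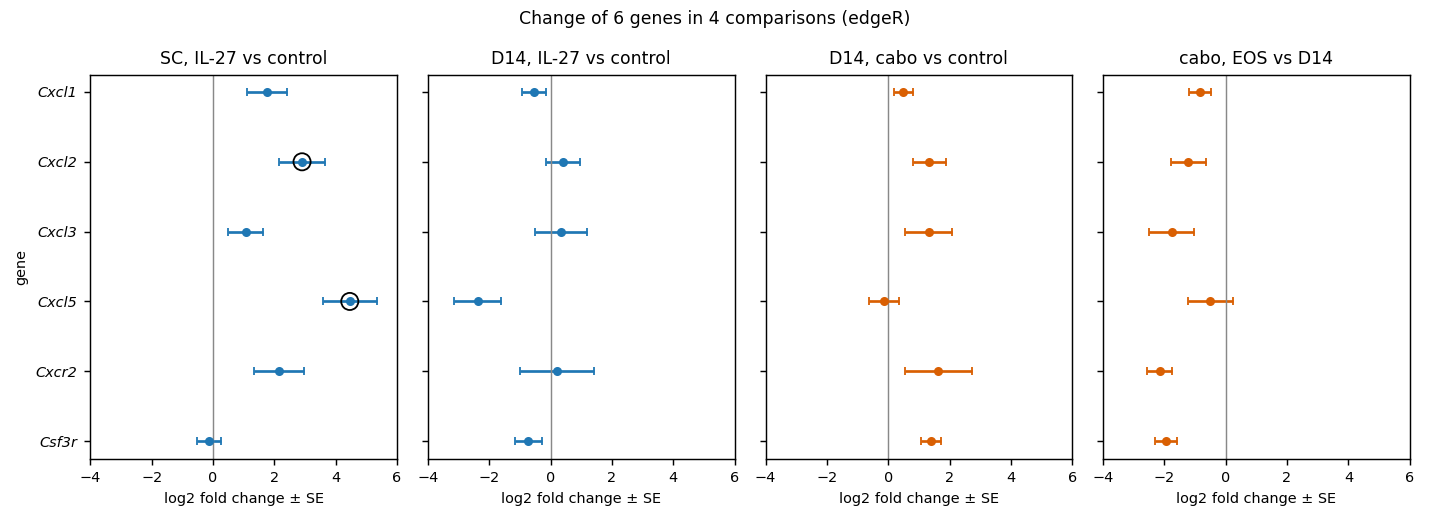
Log2 fold change with its standard error from edgeR (x axis) of each gene but Csf3 (y axis) in 4 comparisons, one per panel, first-named group minus second. Circled points had an adjusted p under 0.05, which only Cxcl2 and Cxcl5 in the SC comparison did; Cxcl5 lies at 4.46 there and at -2.38 for IL-27 on day 14.

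Markers of neutrophils, muscle, macrophages, fibroblasts and the tumor line moved with the SC groups. Of 15 mature neutrophil markers, 5 rose and 1 fell by the same edgeR test: the alarmin subunit genes S100a8 (log2 fold change 3.98, SE 0.62) and S100a9 (3.91, SE 0.67), the IL-1 decoy receptor Il1r2 (3.30, SE 0.42), Cd177 (3.12, SE 0.69) and Fpr2 (2.23, SE 0.51) rose, and Mmp9 fell (-1.97, SE 0.43). Their summed level ran from 81.8 to 99.5 CPM with IL-27 and from 42.8 to 43.2 CPM in the control tumors. Ly6g, which defines neutrophils in the mouse, had 0.415 and 0.434 CPM with IL-27 against 0.654 and 0.780. Of 9 precursor markers, 5 passed the filter and 4 of these rose, among them Ngp (log2 fold change 6.57, SE 0.56) and Mpo. In both control tumors 6 of the 9, Mpo among them, had no counts. Those of the 6 that were tested passed the filter only through the IL-27 tumors and could only rise. The count of 4 is thus partly set by the filter. The summed level ran from 36.5 to 45.2 CPM with IL-27 and from 3.50 to 4.50 CPM without. All 8 skeletal muscle markers rose, with a summed level of 319.8 to 822.6 CPM with IL-27 against 2.82 to 10.1 CPM. Of 6 fibroblast markers Fap (log2 fold change 1.98, SE 0.50) and Lum (1.35, SE 0.37) rose and Col1a1 (-2.06, SE 0.43) fell. Of 6 macrophage markers 4 fell and none rose, though Adgre1 and Mrc1 were higher with an unadjusted p under 0.05, and the summed level of the list overlapped, at 810.5 to 1174 CPM with IL-27 and 905.9 to 1108 without. Of 6 epithelial and tumor line markers, Hras (log2 fold change -3.89, SE 0.54) and Krt8 (-3.81, SE 0.69) fell. The summed level of 6 endothelial markers ran from 370.4 to 794.5 CPM with IL-27 and from 295.4 to 347.9 CPM in the control tumors. The part of these cell types in the changes of the chemokine genes was not tested, and in bulk tissue fewer cells of a type and less RNA per cell cannot be told apart.

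Among the genes upstream of these ligands, Il1b (log2 fold change 2.22, SE 0.43), Il6 (2.85, SE 0.53) and the IL-1 receptor Il1r1 (1.58, SE 0.44) rose in the SC IL-27 tumors, while the TNF receptor Tnfrsf1a (-1.53, SE 0.37), the IL-17 receptor chain Il17rc (-3.37, SE 0.44) and the NF-κB inhibitor Nfkbia (-1.84, SE 0.37) fell. These were 3 of 12 list genes in each direction, of 10 tested. Il17a had no counts in any SC tumor. Of 5 genes of the other colony-stimulating factors and their receptors, Csf1 (log2 fold change -1.19, SE 0.32) and Csf2ra (-1.84, SE 0.50) fell and none rose. Ppbp, which encodes a further CXCR2 ligand of platelets, had 3.60 and 5.80 CPM with IL-27 against 2.55 and 2.45, and did not pass the test. Of the marrow retention genes, which hold neutrophils through CXCL12 and its receptor CXCR4, Itga4 (log2 fold change 1.79, SE 0.44) rose and the other 3 did not pass.

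In the intratibial tumors no member was called in any of the 16 comparisons by edgeR, and the levels are described by gene, ligands first. Cxcl1 on day 14 had 2.16, 1.71 and 2.67 CPM in the control tumors, 1.99, 0.884 and 1.60 with IL-27, 1.90, 3.62 and 3.69 with cabo and 2.04, 3.70 and 2.81 with IL-27+cabo. At EOS it had 14.4 CPM in the control tumor of mouse 9 and 1.09 in that of mouse 13, against 0.628 and 1.24 with IL-27, 1.45 and 1.96 with cabo, and 2.19 and 1.63 with IL-27+cabo. Each group overlapped its neighbour in the order of the means, from EOS control (7.77 ± 9.45 CPM, SD, n = 2) down to EOS IL-27 (0.936 ± 0.435 CPM, SD, n = 2).

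Cxcl2 had 0.477, 1.84 and 0.698 CPM in the D14 control tumors, 1.22, 0.979 and 1.74 with IL-27, 2.31, 1.69 and 3.64 with cabo and 0.754, 1.73 and 2.57 with IL-27+cabo. At EOS it had 20.8 CPM in the control tumor of mouse 9, the highest Cxcl2 of the 20 tumors, and 0.340 in that of mouse 13, the lowest. The other EOS tumors had 0.586 and 0.686 CPM with IL-27, 0.494 and 1.69 with cabo, and 1.33 and 0.808 with IL-27+cabo. The control pair thus spanned the range of all other intratibial tumors, and no neighbouring groups in the order of the means were apart.

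Cxcl3 had 0.327, 3.09 and 0.780 CPM in the D14 control tumors, 1.93, 0.569 and 2.81 with IL-27, 5.23, 1.53 and 3.72 with cabo and 2.87, 2.85 and 2.65 with IL-27+cabo. The IL-27+cabo tumors were the most alike of the D14 groups. At EOS it had 9.79 and 0.749 CPM in the control tumors of mice 9 and 13, 0.782 and 0.257 with IL-27, 0.384 and 1.67 with cabo, and 2.49 and 1.30 with IL-27+cabo. In the order of its means the IL-27+cabo groups of D14 and EOS were neighbours and stood apart.

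Cxcl5 differed from the other ligands in the tumor of mouse 9, where it had 0.230 CPM, below 16 of the other 19 intratibial tumors, and it had no counts in the control tumor of mouse 13. On day 14 it had 1.60, 0.755 and 2.33 CPM in the control tumors and 0.0556, 0.284 and 0.551 with IL-27, so that every IL-27 tumor lay below every control tumor. Cabo tumors had 1.15, 2.23 and 0.839 CPM and IL-27+cabo tumors 1.30, 3.05 and 1.04, both within reach of the control tumors. At EOS it was 0 and 0.486 CPM with IL-27, 0.302 and 1.69 with cabo, and 2.36 and 1.15 with IL-27+cabo. The highest group means were thus those of both IL-27+cabo groups, at 1.80 ± 1.09 CPM on day 14 (SD, n = 3) and 1.76 ± 0.857 at EOS (SD, n = 2), and the lowest that of the EOS control tumors.

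Cxcr2 had 0, 1.25 and 0.233 CPM in the D14 control tumors, 0.431, 0.679 and 0.609 with IL-27, 1.94, 1.07 and 1.62 with cabo, and 0.641, 0.670 and 1.19 with IL-27+cabo. The 2 highest values were those of cabo tumors, and the third cabo tumor lay below 1 control tumor and 1 IL-27+cabo tumor. At EOS it had 1.41 and 0.572 CPM in the control tumors of mice 9 and 13, 0.140 and 0.0857 with IL-27, 0.302 and 0.389 with cabo, and 0.503 and 0.781 with IL-27+cabo. EOS IL-27 tumors were the lowest group and stood apart from EOS cabo tumors, the next group in the order of the means. Cxcr1, the other receptor of this kind, had at most 0.188 CPM in an intratibial tumor and no counts in the SC tumors.

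Csf3 counts were 57 in the EOS control tumor of mouse 9 and 42, 0 and 14 in the D14 IL-27+cabo tumors. They were 15 in 1 D14 cabo tumor, at most 4 in 4 further intratibial tumors, and 0 in the others, 12 tumors at 0 in all. All 3 D14 IL-27 and both EOS IL-27+cabo tumors were at 0. No fold change is given for this gene.

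Csf3r had 4.30, 2.33 and 3.37 CPM in the D14 control tumors, 1.06, 1.83 and 3.10 with IL-27, 7.18, 12.7 and 6.55 with cabo, and 3.02, 6.80 and 7.34 with IL-27+cabo. All 3 cabo tumors lay above all control and all IL-27 tumors. At EOS it had 9.66 and 1.23 CPM in the control tumors of mice 9 and 13, 0.237 and 1.59 with IL-27, 2.77 and 1.79 with cabo, and 2.30 and 6.54 with IL-27+cabo. No neighbouring groups in the order of its means were apart.

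Against the D14 control tumors, which the 3 treatments share, the lowest adjusted p was that of Csf3r with cabo. The log2 fold change of Csf3r was 1.41 (SE 0.32), with all 3 cabo tumors above all 3 control tumors, and it missed the threshold (edgeR adjusted p = 0.0781, n = 3 and 3; 0.0720 to 0.212 when 1 tumor was left out). DESeq2 called it (adjusted p = 0.000567, n = 3 and 3). Cxcl2 had a log2 fold change of 1.34 (SE 0.53, edgeR adjusted p = 0.231, n = 3 and 3) with overlapping groups. None of the 6 members tested was called by edgeR, where 1.89% of 18627 genes were, 2 had an unadjusted p under 0.05, where 18.9% of genes did, and DESeq2 called 1, where it called 7.96% of genes. The groups of 1 member did not overlap, against 27.1% of genes. The median log2 fold change of these 6 was 1.33, against -0.01 over all genes tested.

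Other myeloid and cytokine genes differed in the same pair of D14 groups. With cabo, Il1b (log2 fold change 1.50, SE 0.27) and Il1r1 (0.48, SE 0.09) rose among the upstream genes, 2 of 10 tested, and none fell. Csf2rb, the signalling chain of the GM-CSF receptor, rose (0.85, SE 0.16). Ackr1, the atypical receptor that takes up these chemokines on venular endothelium and red cells, rose from 0.175 to 1.62 CPM (log2 fold change 3.20, SE 0.35). Of 15 mature neutrophil markers 2 rose, Clec4d (1.54, SE 0.28) and Trem1 (1.38, SE 0.24), none fell, and their mean log2 CPM was 0.84 to 1.23 with cabo and -0.57 to 0.72 in control tumors. The summed level of the same list, to which Mmp9 contributes most, ran from 108.9 to 167.8 CPM with cabo and from 106.0 to 219.3 without. No precursor marker passed the test. Their summed level was 8.88 to 11.2 CPM with cabo and 4.05 to 8.40 CPM in control tumors, but their mean log2 CPM was -3.51 to -2.37 with cabo and -2.58 to -2.14 without. The median log2 fold change of the 5 precursor markers tested was -2.75, with an unadjusted p under 0.05 for 3 that were lower (Camp, Ltf and Ngp) and 1 that was higher (Chil3). Of 6 endothelial markers 2 fell, Emcn (-2.70, SE 0.24) and Kdr (-1.56, SE 0.28), and of 6 fibroblast markers Col3a1 rose (0.64, SE 0.11). Muscle markers ran from 697.5 to 1244 CPM with cabo and from 3.51 to 94.0 without, and 3 of 8 rose; the part of these lists in the change of Csf3r was not tested.

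**Figure D3:**
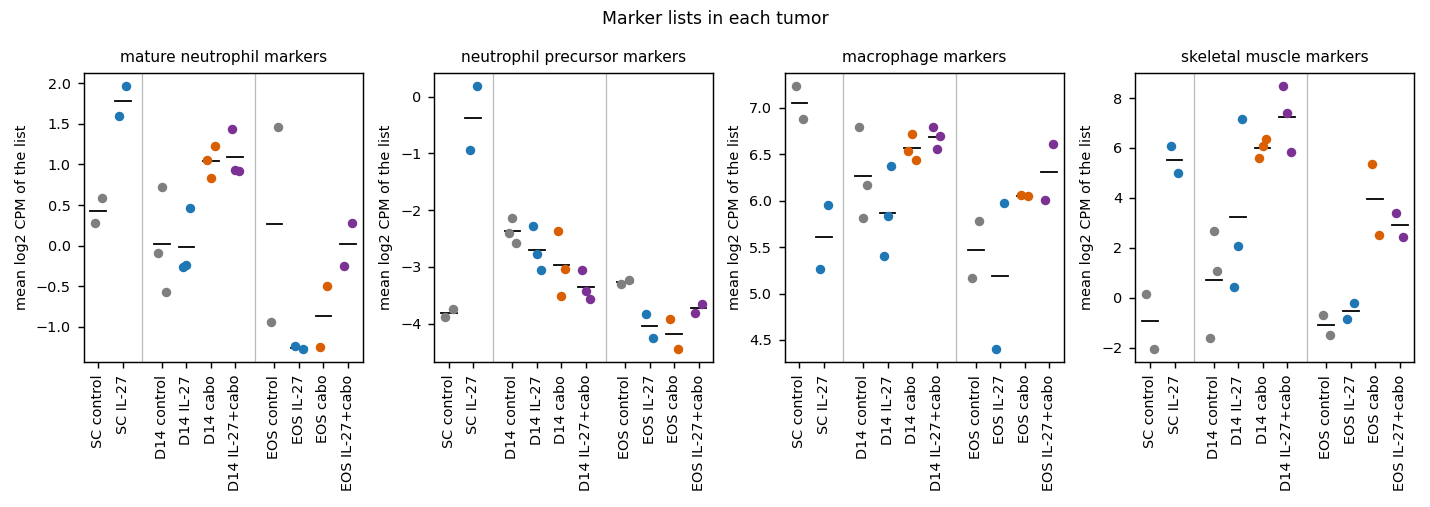
Mean log2 CPM of 4 marker lists (y axis) in every tumor, by group (x axis); each point is a tumor and each bar a group mean. Mature neutrophil markers are highest in the SC IL-27 tumors among SC tumors. Among intratibial tumors they are highest in the EOS control tumor of mouse 9, at 1.47. The D14 IL-27+cabo tumor of mouse 20 is close to it, at 1.43. Precursor markers stay below -2 in every intratibial tumor.

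IL-27 alone on day 14 gave no call, either by edgeR or by DESeq2, where 0% of 18519 genes were called by edgeR and 0.0108% by DESeq2. Cxcl5, with no overlap between groups, had a log2 fold change of -2.38 (SE 0.77, edgeR adjusted p = 1.00, n = 3 and 3). It was the 1 member with an unadjusted p under 0.05, against 2.76% of genes, and the 1 member whose groups did not overlap, against 7.69%. The combination gave no call and no member with an unadjusted p under 0.05 against control by edgeR, where 6.2% of 18750 genes had one and 0.064% were called, and DESeq2 called none, with 2.58% of genes called. Against cabo alone, IL-27+cabo likewise gave no call by either tool and no unadjusted p under 0.05 among 7 members tested, where 1.92% of genes had one, 0% were called by edgeR and 0.0268% by DESeq2. Against IL-27 alone there was again no call by either tool, with 0% of genes called by edgeR and 0.899% by DESeq2, but 2 of 6 members had an unadjusted p under 0.05, against 4.85% of genes. These were Cxcl5 (log2 fold change 2.59, SE 0.87, edgeR adjusted p = 0.916, n = 3 and 3), without overlap, and Csf3r (1.51, SE 0.54, edgeR adjusted p = 0.916, n = 3 and 3), with overlap. The groups of 2 members, Cxcl1 and Cxcl5, did not overlap, against 12.6% of genes.

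The interaction asked whether IL-27 and cabo together differ from the sum of their log2 changes. No member was called by edgeR or DESeq2, nor was any gene by edgeR (0% of 19899), while DESeq2 called 0.0201%. Cxcl5 was the 1 member of 7 with an unadjusted p under 0.05, where 1.88% of genes had one, with a log2 difference of 2.73 (SE 1.03, edgeR adjusted p = 0.952, n = 12 tumors). Its level was 0.297 ± 0.248 CPM with IL-27 (SD, n = 3) and 1.80 ± 1.09 CPM with IL-27+cabo (SD, n = 3).

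At EOS the comparisons with control share the same 2 control tumors, 1 of them that of mouse 9. With IL-27, Cxcr2 had a log2 fold change of -3.12 (SE 0.67, edgeR adjusted p = 1.00, n = 2 and 2), with both IL-27 tumors below both control tumors and a range of -3.62 to -2.33 when 1 tumor was left out. Cxcl1 (-3.05, SE 1.02), Cxcl2 (-4.05, SE 1.51) and Cxcl3 (-3.34, SE 1.24) also had unadjusted p under 0.05, with overlapping groups. Without mouse 9 their log2 fold changes were -0.23, 0.89 and -0.53, so that Cxcl2 changed direction. The groups of 1 member, Cxcr2, did not overlap, against 32.8% of genes. In all, 4 of 6 members had an unadjusted p under 0.05 against 3.25% of genes, no member was called by edgeR or DESeq2, and edgeR called 0% and DESeq2 0.115% of 20026 genes.

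With cabo at EOS, Cxcr2 again lay below control without overlap (log2 fold change -1.53, SE 0.61, edgeR adjusted p = 0.535, n = 2 and 2). That value ranged from -2.04 to -0.76 when 1 tumor was left out, and was -0.76 without mouse 9. It was the 1 member with an unadjusted p under 0.05, against 8.9% of genes, and no member was called by edgeR, which called 0% of genes, or by DESeq2, which called 1.35%. Cxcl5 was higher in both cabo and both IL-27+cabo tumors than in both control tumors, but did not pass. The groups did not overlap for 2 of 6 members with cabo, against 43% of genes, and for 1 with IL-27+cabo, against 42.1%. With IL-27+cabo no member had an unadjusted p under 0.05, against 14.2% of genes, and neither edgeR, which called 0% of genes, nor DESeq2, which called 4.63%, called one.

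Between D14 and EOS within a treatment, the lowest adjusted p of the members were in the cabo groups, where Cxcr2 and Csf3r were lower at EOS without overlap. Csf3r went from 8.81 ± 3.37 CPM on day 14 (SD, n = 3) to 2.28 ± 0.696 at EOS (SD, n = 2), a log2 fold change of -1.95 (SE 0.36, edgeR adjusted p = 0.0532, n = 3 and 2). Cxcr2 went from 1.54 ± 0.438 CPM (SD, n = 3) to 0.346 ± 0.0618 (SD, n = 2), a log2 fold change of -2.15 (SE 0.40, edgeR adjusted p = 0.0525, n = 3 and 2). Both missed the threshold, and DESeq2, which called 9.14% of genes, called both (adjusted p = 5.00e-06 and 0.000352), as did edgeR with the counts divided by 4 (adjusted p = 0.0422 and 0.0484). By edgeR none of 6 members was called, where 2.09% of 19144 genes were, and 3 had an unadjusted p under 0.05, the third being Cxcl3 (log2 fold change -1.76, SE 0.73), against 17.6% of genes. The groups did not overlap for 3 members, Cxcl2 with both receptors, against 36.5% of genes. All 6 had lower values at EOS, with a median log2 fold change of -1.49 against 0.01 over all genes tested.

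In the same pair of groups Il1b fell (log2 fold change -2.83, SE 0.18), as did Csf2rb (-0.93, SE 0.14), Ackr1 (-3.36, SE 0.59) and the chemokine Cxcl12 (-1.37, SE 0.18). Csf2, the gene of GM-CSF, had 0 counts in both EOS cabo tumors and 0.550 CPM on day 14. Of 15 mature neutrophil markers 3 fell, Clec4d (-1.85, SE 0.16), Fpr2 (-2.90, SE 0.35) and Hdc (-1.60, SE 0.29), and none rose; their mean log2 CPM was -1.24 to -0.50 at EOS against 0.84 to 1.23. Their summed level was 116.9 to 247.3 CPM at EOS against 108.9 to 167.8, Mmp9 again being the main part. Retnlg had no counts in either EOS cabo tumor. Of 6 endothelial markers 4 rose, among them Emcn (3.31, SE 0.22), with a summed level of 239.9 to 288.0 CPM at EOS against 121.2 to 136.3. Of the fibroblast markers Col3a1 (-0.87, SE 0.08) and Dcn (-0.48, SE 0.08) fell, of the macrophage markers Mrc1 (-0.88, SE 0.09), and of the precursor markers Chil3 (-2.29, SE 0.25). No muscle marker passed, but all 8 were lower at EOS, with a summed level of 84.8 to 647.5 CPM against 697.5 to 1244. The part of cell numbers in the lower receptor levels was not tested.

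In the control groups Cxcl5 was lower at EOS without overlap (log2 fold change -3.74, SE 1.18, edgeR adjusted p = 0.278, n = 3 and 2), and DESeq2 called it, alone among the members, where it called 4.52% of genes (adjusted p = 0.0227, n = 3 and 2). It was the 1 member of 6 without overlap, against 33.6% of genes. Its value ranged from -9.84 to -2.73 when 1 tumor was left out, and the first of these is the one without mouse 9, which leaves an EOS control tumor at 0 counts. Cxcl2 had a log2 fold change of 3.40 (SE 1.30, edgeR adjusted p = 0.343, n = 3 and 2), which became -1.53 without mouse 9. These were the 2 of 6 members with an unadjusted p under 0.05, against 13.1% of genes; edgeR called none, with 0.104% of 19292 genes called. With IL-27, Cxcr2 was lower at EOS without overlap (-2.29, SE 0.69, edgeR adjusted p = 0.818, n = 3 and 2), as was Cxcl2, 2 of 6 members against 24.5% of genes. Cxcr2 was the 1 member with an unadjusted p under 0.05, against 5.05% of genes, and neither edgeR, which called 0% of genes, nor DESeq2, which called 0.55%, called one. With IL-27+cabo Cxcl3 was lower at EOS without overlap (-0.58, SE 0.48, edgeR adjusted p = 0.925, n = 3 and 2), the 1 member of 7, against 22.1% of genes. No member had an unadjusted p under 0.05 by edgeR, against 3.83% of genes, and neither edgeR, which called 0% of genes, nor DESeq2, which called 1.68%, called one.

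Whether a treatment's change differed between D14 and EOS was tested over all 20 intratibial tumors, and no member was called by edgeR or DESeq2 in any of the 3 tests, in which edgeR called 0%, 0.0788% and 0.0788% of 21563 genes for IL-27, cabo and IL-27+cabo. DESeq2 called 0.0139%, 0.413% and 0.886%. For Cxcl2 the difference was -4.42 (SE 1.47) for IL-27, -4.65 (SE 1.47) for cabo and -4.05 (SE 1.45) for IL-27+cabo on the log2 scale, and 0.51, 0.28 and 0.88 without mouse 9. For Cxcl1 it was -2.50 (SE 0.99), -2.71 (SE 0.98) and -2.41 (SE 0.98), and 0.32, 0.10 and 0.40 without mouse 9. For Cxcr2 it was -3.31 (SE 1.48) for IL-27 and -3.18 (SE 1.44) for cabo, and kept its direction when any 1 tumor was left out, from -5.39 to -2.53 and from -5.27 to -2.41. Cxcl3, from -5.00 to -0.87 for IL-27 and from -5.11 to -0.91 for cabo, and Csf3r, from -3.51 to -0.56 for cabo, did so too, each nearest to 0 without mouse 9. Unadjusted p were under 0.05 for 4, 5 and 3 of 7 members, against 1.93%, 4.11% and 9.14% of genes. The 3 tests share the same control tumors.

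The EOS control tumor of mouse 9 therefore needs its own account. It had the highest level of the 20 intratibial tumors for 4 of the 7 members: 14.4 CPM for Cxcl1, where the other 19 reached at most 3.70, 20.8 CPM for Cxcl2, where they reached 3.64, 9.79 CPM for Cxcl3, where they reached 5.23, and 0.819 CPM for Csf3, where they reached 0.792. Of the 12 upstream genes, Il1a, Il1b, Nfkbiz and Nfkbia were also highest there. Il1a, the gene of interleukin-1 alpha, had 4.83 CPM against at most 1.61 in the others. Nfkbiz, an NF-κB cofactor, had 57.7 CPM against at most 26.2, and Nfkbia had 102.0 CPM against at most 58.3. Of the 15 mature neutrophil markers, S100a9, Mmp9, Retnlg and Fpr1 were highest there, with 4.79, 792.0, 0.834 and 2.34 CPM, while Trem1, Padi4 and Ly6g, at 1.50, 0.676 and 0.244 CPM, lay below the medians of the other 19 tumors (2.85, 1.35 and 0.482 CPM). None of the 9 precursor markers, 8 muscle markers or 6 tumor line markers was. These are values of 1 tumor, with no replicate, and it was picked for its levels of these members. The share of all genes that were highest in it was not computed, so these counts have no background to be set against.

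Between tumors the members did not all vary together. Over the 20 intratibial tumors, 28 relations of log2 CPM were computed, 21 between members and 7 between a member and the mean of the 15 mature neutrophil markers, and 13 had an adjusted p under 0.05 for Pearson's r by permutation. Cxcl2 followed Cxcl3 (r = 0.82, permutation p = 2e-05, adjusted 0.000373; rho = 0.85, permutation p = 2e-05, adjusted 0.00028), where shared reads may add to the relation. It stayed at r = 0.78 over the 12 D14 tumors alone, at 0.80 for deviations from group means, and at 0.82 without the 2 tumors farthest from the median. Cxcl3 followed Cxcr2 (r = 0.78, permutation p = 4e-05, adjusted 0.000373; rho = 0.77, permutation p = 0.00016, adjusted 0.00084), with r of 0.81, 0.62 and 0.74 in those settings. Cxcl3 also followed the neutrophil marker score (r = 0.82, permutation p = 3e-05, adjusted 0.000373; rho = 0.83, permutation p = 2e-05, adjusted 0.00028), with r of 0.76, 0.76 and 0.76. These 3 relations were the only ones of the 28 with an adjusted p under 0.05 for r in all 5 settings, the fifth being the one without mouse 9. Deviations from group means depend on each other within a group, but were permuted freely. The p-values of that setting may thus be too small.

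The relations of Cxcl5 also changed when mouse 9 was left out. Its r was 0.20 with Cxcl2, 0.21 with Cxcl3 and 0.10 with Cxcr2, none of which passed (adjusted permutation p = 0.435, 0.435 and 0.700), and its rho was 0.18, 0.16 and 0.04 (adjusted permutation p = 0.551, 0.564 and 0.872). Without mouse 9 its r was 0.46, 0.32 and 0.14, none of which passed (adjusted permutation p = 0.0872, 0.262 and 0.660), and its r with the neutrophil marker score went from 0.46, which did not pass (adjusted permutation p = 0.0725), to 0.55, which did (0.0322). Over all 20 tumors its r was 0.68 with Csf3r (permutation p = 0.00084, adjusted 0.00235; rho = 0.48, permutation p = 0.0362, adjusted 0.0655). That relation fell to r = 0.42 without the 2 tumors farthest from the median Cxcl5, where it no longer passed (adjusted permutation p = 0.155). It was 0.77 within D14 (adjusted permutation p = 0.0178) and 0.71 for deviations from group means (adjusted permutation p = 0.0035, which may be too small in that setting). Cxcl1 was related to Csf3r (r = 0.74, permutation p = 0.00053, adjusted 0.00185; rho = 0.72, permutation p = 0.00048, adjusted 0.00168), with r = 0.69 without its 2 most extreme tumors and 0.69 within D14, where it did not pass (adjusted permutation p = 0.0593). Cxcl1 and Cxcl2 had r = 0.80 (permutation p = 0.00022, adjusted 0.00103; rho = 0.58, permutation p = 0.00903, adjusted 0.0194) but r was 0.59 without mouse 9 and 0.33 within D14 (adjusted permutation p = 0.535), where the relation did not hold. Cxcl1 and Cxcl5 had r = 0.41, which did not pass (permutation p = 0.0769, adjusted 0.108), while their rho of 0.58 did (permutation p = 0.00767, adjusted 0.0179), and r was 0.74 without mouse 9. Csf3r had r = 0.74 with the neutrophil marker score (permutation p = 0.00017, adjusted 0.000952; rho = 0.75, permutation p = 0.00021, adjusted 0.00084), and r = 0.57 within D14 (adjusted permutation p = 0.158). Csf3 passed with no member by either measure.

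**Figure D4:**
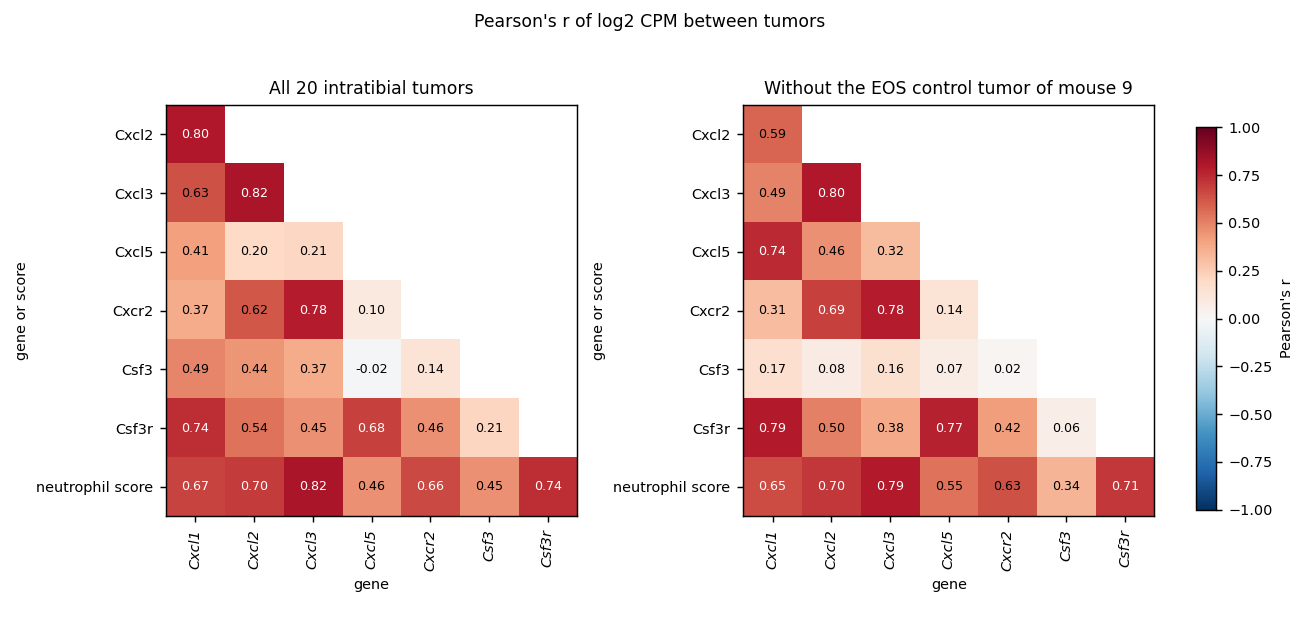
Pearson's r of log2 CPM between each pair of genes (x and y axes), and between each gene and the mean of the mature neutrophil markers in the bottom row, over all 20 intratibial tumors on the left and without the EOS control tumor of mouse 9 on the right; colour runs from -1 to 1. Cxcl2 with Cxcl3 and Cxcl3 with Cxcr2 change little between the panels, while Cxcl1 with Cxcl2 goes from 0.80 to 0.59 and Cxcl1 with Cxcl5 from 0.41 to 0.74.

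Among 21563 genes, those most like each member over the 20 intratibial tumors were named by the highest Pearson's r, as a description. For Cxcl1 they were Acod1, which encodes the itaconate-forming enzyme of activated macrophages (r = 0.82), Nfkbia (0.81) and the mRNA decay factor Zfp36 (0.81). For Cxcl2 they were the niacin receptor Hcar2 (0.89), Ier3 (0.85) and Il1f9, which encodes interleukin-36 gamma (0.84). Cxcl3 was most like Hcar2 (0.84), Ppbp (0.83) and Cxcl2 (0.82). Without mouse 9 the 3 genes most like Cxcl1 were Osm (0.85), Mmp25 (0.85) and G530011O06Rik (0.84), and those most like Cxcl2 were Mirt2 (0.86), Suv39h1 (0.81) and Csnk1g3 (0.80), while Cxcl3 had Ppbp (0.85), Hcar2 (0.82) and Cxcl2 (0.80). The lists of Cxcl1 and Cxcl2 thus changed in full when that tumor was left out and the list of Cxcl3 did not.

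Cxcl5 was most like Entpd1, which encodes the ectonucleotidase CD39 (r = 0.87), Svep1 (0.85) and the IgG receptor Fcgr3 (0.85), and Entpd1 stayed first without mouse 9 (0.86). Cxcr2 was most like Cxcl3 (0.78), Kbtbd13 (0.77) and Prr16 (0.76). Without mouse 9 it was most like Xirp1 (0.78), Cxcl3 (0.78) and Actn2 (0.78), where Xirp1 and Actn2 are genes of striated muscle. Csf3r had the highest values, with Igsf6 (0.94), Csf2rb2 (0.93) and Csf2rb (0.92), the last a pair of close copies whose reads may be shared. Without mouse 9 the genes most like it included Clec7a, which encodes the glucan receptor dectin-1 (0.96), and Cd86 (0.95). For Csf3, at 0 in 12 tumors, the leading genes were Gm5483 (0.74), Selenbp1 (0.73) and Dmkn (0.72).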

How the data were processed

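RNA of 24 tumors was measured. The authors checked RNA integrity, made stranded poly(A) libraries, sequenced both ends on a NovaSeq, trimmed reads with cutadapt and mapped them with HISAT2; StringTie, FastQC and DESeq2 are also among the tools of the submitters' processing notes. These notes name GRCh38, a human build, although the tissue is mouse, and the program that made the counts is not given in the sources used here. The deposited values are raw counts, whole numbers per Ensembl identifier. Identifiers were joined to GENCODE M21 (55141 of 55401 found), and promoters came from RefSeq for 5 members. The file's columns map to the 24 tumors by library name.

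Groups were compared with edgeR 4.0.16 in R 4.3.3 (filterByExpr, TMM, quasi-likelihood F test, two-sided p, Benjamini-Hochberg over all genes tested, threshold 0.05); DESeq2 1.42.0 was an alternative. Each fit held the groups compared, except that the interaction used all D14 tumors, EOS comparisons the EOS tumors, and differences between D14 and EOS all 20. Log2 CPM had a prior count of 2. Correlations used 100000 two-sided permutations, adjusted over 28 relations; the smallest p these can give is 1e-05. Counting depth was 63729005 to 83782258 per library. Alternatives were RLE size factors, no filter, counts divided by 4, removal of GC and length trends (splines, 5 degrees of freedom), all intratibial tumors in one fit, a replicate block for SC tumors, a prior count of 0.5 and leaving out each tumor. Leaving out mouse 9 in correlations and likeness was chosen after seeing the data. The scripts were tested on simulated data. The genes named are the members, the genes of fixed marker and pathway lists and, per member, the 3 genes with the highest r over the intratibial tumors; 1 gene found without mouse 9 is not reported here. Members and lists were chosen with earlier results of these data known. FPKM values, cell profiling and imaging were not used here.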

Additional observations from a re-analysis of the deposited data

Results flagged for a closer look

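No group held 4 or more tumors, so that outlying tumors within a group were not tested. 2 genes had every IL-27 tumor on one side of control in the SC model and on the other side in the intratibial model. Cxcl5 had a log2 fold change of 4.46 (SE 0.88) in SC tumors and -2.38 (SE 0.77) on day 14. Cxcr2 had a log2 fold change of 2.15 (SE 0.81) in SC tumors and -3.12 (SE 0.67) at EOS, where the control group holds the tumor of mouse 9. Each opposite side held at 1 time point only: Cxcl5 had a log2 fold change of 1.07 (SE 1.77) at EOS and Cxcr2 of 0.22 (SE 1.20) on day 14, both with overlapping groups and in the direction of the SC model. Over all genes tested, the IL-27 and control groups did not overlap for 66.5% in the SC model, 7.69% on day 14 and 32.8% at EOS, so that the count of 2 is not a result about these genes. The difference between the models was not tested for either gene, and the models also differ in site, cell line derivative and time of harvest.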

How the results depend on the processing

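Counts of called members by edgeR kept their main value under most settings. For SC IL-27 against control, 2 members were called, and 4 with DESeq2 (Cxcl1 and Cxcr2 added), 1 with no filter on low counts, 1 with the GC and length trend removed, and 0 to 2 when 1 tumor was left out. With the replicate block 3 were called (Cxcl1 added, edgeR adjusted p = 0.0415), and with the block and the GC and length trend removed 1. The correlation of deviations between SC tumors of the same replicate number was 0.03 over 19174 genes with 2 pairs, and nothing says that the numbers pair the tumors. Csf3r in SC tumors went from a log2 fold change of -0.12 to 1.10 with the trend removed and 1.11 with the block as well. DESeq2 called 1 member for cabo against control on day 14 (Csf3r), 1 for EOS against D14 in control (Cxcl5) and 2 in cabo (Cxcr2 and Csf3r), where edgeR called 0; the last count was also 2 with counts divided by 4 and 1 with the trend removed. Of 28 relations, 13 passed, and 5 over the D14 tumors alone.

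Leaving out 1 tumor changed the direction of some log2 fold changes, none of which had been called. Against D14 control, Cxcl3 ranged from -0.14 to 1.69 and Cxcr2 from -0.35 to 2.29 with IL-27, and Cxcl5 from -0.64 to 0.26 with cabo. Cxcl5 ranged from -2.22 to 0.26 for EOS against D14 in cabo, and Cxcl2 from -1.53 to 4.39 in control and from -5.03 to 0.89 for IL-27 against control at EOS. The difference of the change between EOS and D14 ranged for Cxcl1 from -3.40 to 0.32 (IL-27), -3.60 to 0.10 (cabo) and -3.32 to 0.40 (IL-27+cabo), and for Cxcl2 from -5.41 to 0.51, -5.78 to 0.28 and -5.04 to 0.88; these 6 and both of Cxcl2 before them turned only without mouse 9. In the SC model the ranges were 1.17 to 2.78 for Cxcl1, 1.70 to 3.55 for Cxcl2, 2.83 to 5.20 for Cxcl5 and 0.72 to 2.85 for Cxcr2. With 1 tumor left in an EOS or SC group, that tumor was assumed to vary like the others. The cause of these changes was not tested.

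Over all genes, edgeR called 3880 in the SC comparison, 682 of them higher with IL-27, against 6120 with DESeq2 (2245 higher), 4248 with the replicate block and 1668 with the trend removed (518 higher). For cabo against control on day 14 it called 352, against 1483 with DESeq2, 101 with no filter and 40 with all intratibial tumors in one fit. For EOS against D14 in cabo it called 400, against 1749, 110 and 53. For EOS against D14 in control it called 20, against 872 with DESeq2. No step behind the multiples of 4 among low values is known, and with 2 or 3 tumors per group a member that did not pass may still differ.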

Other observations

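The marrow retention genes, which encode the chemokine CXCL12, its receptor CXCR4 and the adhesion pair VCAM1 and ITGA4, were not higher in the EOS control tumor of mouse 9 than in every other intratibial tumor. Cxcl12 had 73.2 CPM there, where the other 19 tumors ran from 25.1 to 90.7 with a median of 54.9, and Cxcr4 had 58.5 CPM, where they ran from 6.39 to 70.3 with a median of 24.1. Vcam1 and Itga4 lay below the medians of the others, at 19.2 CPM against 44.2 and 7.45 CPM against 12.8. Of the colony-stimulating factors, Csf1 had 140.9 CPM, close to the median of 140.6 over the others, and Csf2 had 0.561 CPM, where the others ran from 0 to 1.49. Of the 6 macrophage markers, Cd68 had 112.2 CPM, above the other 19 tumors, which reached 102.8. Cd14 had 51.0 CPM, above the median of 35.5, with 16 of the 19 tumors lower. C1qa, C1qb, Mrc1 and Adgre1, at 63.1, 57.1, 39.3 and 33.7 CPM, lay below their medians, with 3 to 5 of the 19 tumors lower. The genes and the tumor were chosen after their values were seen.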
